A study of Arabidopsis thaliana with 18 samples.

Results

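These data follow 90 probe sets of genes that Arabidopsis seedlings already expressed and whose signal was higher, at each of 3 times, in plants induced to express the germline regulator DUO1. The 90 were selected on the measured values from 22746 probe sets of the ATH1 array. A probe set had to average a signal of at least 10 over the 9 not induced arrays, and its mean log2 signal had to be at least 0.6 higher in induced than in not induced plants at 6 h, at 12 h and at 24 h. Of the 16077 probe sets above the signal minimum, 94 met the rule (0.585%), and TET10, CP1, CYP78A9 and BGAL16 were then left out. Because induction chose the members, all their differences between induced and not induced plants below are descriptions with no test.

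DUO1 is an R2R3 MYB transcription factor of the male germline of flowering plants. It is needed for the generative cell to divide and for the 2 sperm cells to form, and it switches on germline genes such as the sperm histone gene MGH3. Seedlings do not normally make it, so inducing it there asks which genes may respond outside the germline, whether directly or through other genes. The vector pMDC7 places a gene under a synthetic promoter that an activator switches on once oestradiol is given, and the activator itself is made in many tissues.

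The samples were whole Col-0 plants carrying pMDC7DUO1, with the genetic variation labelled as a T-DNA mutation. All samples had 3 days in the cold. Seedlings grew under constant light at 22 C for 12 days on plates with hygromycin at 20 ug per ml and without a carbon source. About 200 seeds were sown on each plate. The groups were induced and not induced plants at 6 h, induced and not induced plants at 12 h, and induced and not induced plants at 24 h, with 3 arrays in each and 18 in all. All 6 groups carry the construct and none received the inducer without it, so effects of DUO1 and of the inducer cannot be told apart. The labels do not say how many transgenic lines or plants went into an array, or whether the replicates come from independent cultures, and p-values reflect only how far these samples spread. The number of arrays limits the precision, and with bulk tissue a change in the number of cells of a type cannot be told apart from a change in RNA per cell. No probe set carries the name DUO1 in the tables given, and the DUO1 transcript itself was not analysed here.

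Over the 18 arrays the median signal lay between 34.3 and 39.5, and 72.3% to 83.6% of probe sets were above the background level of the array, the highest of 27 controls for transcripts not spiked in (3.30 to 10.1). Control probe sets differed between arrays of the same time. At 6 h hybridisation controls averaged 490.0 on induced array 1 and 246 to 268 on induced arrays 2 and 3, against 361 to 444 on the not induced 6 h arrays. The 25S ribosomal RNA probe set read 2013 on induced 6 h array 1 and 233 and 550.0 on the other two, against 2036 to 2891 without induction. At 12 h the hybridisation controls averaged 260 to 277 on induced arrays and 240 to 308 on not induced arrays. At 24 h they averaged 245, 477 and 405 on induced arrays 1, 2 and 3, against 211 to 295 without induction. The 25S probe set read 629 to 1874 on induced and 244 to 573 on not induced arrays at 12 h. At 24 h it read 360 to 974 on induced and 974 to 1335 on not induced arrays. The part of these shifts in the members' differences was not tested. For 6 h, the median over members, counts of members and the values of some members are also given from induced array 1 alone.

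MAS5 signals depend on the probes as well as on the transcript, so signals of different probe sets do not order their genes by expression. The members' mean signal over the not induced arrays had a median of 23.9 and ran between 10.1 and 300.4, against a median of 71.6 over all probe sets above the minimum. It was under 50 for 80 members, under 20 for 39 and over 100 for 3, which is 3.33% of members against 39.1% of all probe sets above the minimum. The 3 over 100 were the serine carboxypeptidase-like gene scpl48 and the probe sets 254608_at and 265058_s_at, which had no gene in the annotation. In no group did a member lie at background on all 3 arrays. At least 1 array at background was found for 2 members in induced 6 h plants, and without induction for 11 members at 6 h, 1 at 12 h and 3 at 24 h, of which 2 at 6 h and 1 at 24 h had 2 arrays there. Low signals came with a larger spread: the median SD of log2 signal was 0.209 over members against 0.182 over all probe sets above the minimum in induced 6 h plants, and 0.298 against 0.191 in not induced 6 h plants.

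At 6 h the median member was 0.85 higher on the log2 scale in induced plants, or 1.80-fold, with differences between 0.60 and 2.41. At 12 h the median difference was 1.22, or 2.33-fold, with a range of 0.61 to 3.00. At 24 h it was 1.16, or 2.23-fold, with a range of 0.61 to 3.26. Over all probe sets above the signal minimum the medians were 0.04, 0.02 and 0.02, and the median standard error of a member's difference was 0.22. A difference of at least 2-fold was reached by 31 members at 6 h, 61 at 12 h and 57 at 24 h, and by 24 at every time. The minimum of 0.6 holds at each time by the rule, and the growth beyond it comes from the same values that chose the members.

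**Figure D1:**
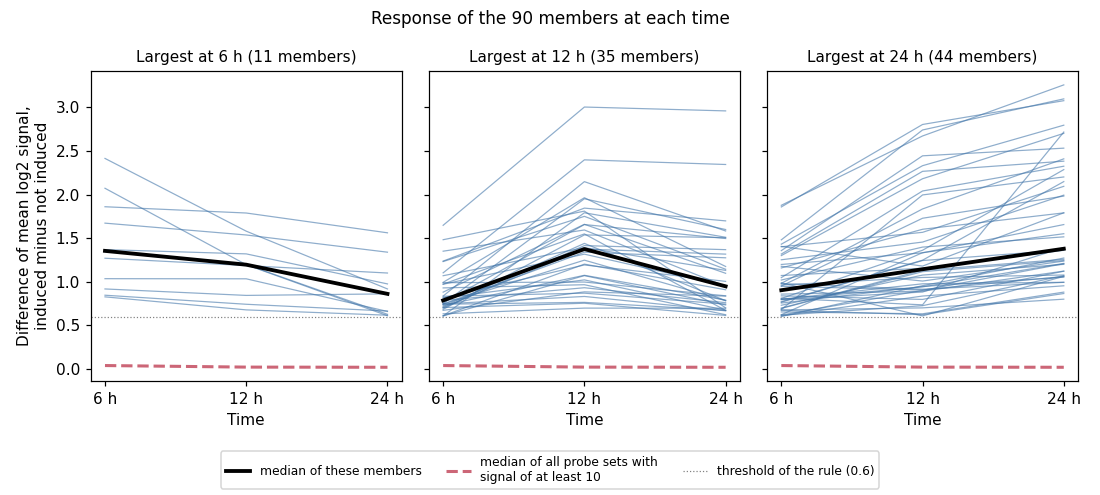
Difference of mean log2 signal between induced and not induced plants (vertical axis, log2 units) at 6 h, 12 h and 24 h (horizontal axis) for each of the 90 members, 1 thin line each, in panels by the time of the largest difference. The thick line is the median of the members in the panel, the dashed line the median of all probe sets with signal of at least 10, near 0 throughout, and the dotted line the threshold of 0.6; 44 members were furthest apart at 24 h, 35 at 12 h and 11 at 6 h.

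Most members had a larger difference at 12 h and at 24 h than at 6 h. The difference was larger at 12 h than at 6 h for 70 members, and larger at 24 h than at 6 h for 66. It was larger at 24 h than at 12 h for 45. The median growth between 6 h and 24 h was 0.29. Induction calls over all probe sets also grew, from 220 at 6 h to 1102 at 12 h and 1894 at 24 h. Shares of all probe sets with such growth are not given here, so nothing particular to the members is read from these counts. From 6 h to 24 h the difference grew by over 1 on the log2 scale for 16 members and shrank by over 0.5 for 4, among them AT3G01430 and AT3G05920. Step by step, 35 members grew at both steps, 10 shrank at both, 35 were highest at 12 h and 10 were lowest at 12 h. Across the 90 members the differences at 12 h and 24 h had a Pearson correlation of 0.76 (Spearman 0.65), those at 6 h and 12 h 0.55 (0.51) and those at 6 h and 24 h 0.37 (0.29). These coefficients describe members that share the array design and a common minimum, and no arrays were shared between times.

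The gene families given below are background from general knowledge of Arabidopsis, since the annotation tables give a locus identifier but no function for 43 of the 49 members that had a gene. Members were put in order by these families after their values were seen, and no family was tested for being common among them. Differences are of mean log2 signal, induced minus not induced, with the standard error (SE) from limma, which is the same at each time because the arrays share 1 estimate of spread per probe set.

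Among genes of transcription, chromatin and protein marking, AT1G08050 had the largest mean difference of all members. It encodes a RING finger protein, a type often found in ubiquitin ligases. AT1G08050 had signals of 58.8, 59.9 and 60.5 at 6 h, 112, 114 and 97.9 at 12 h, and 142, 112 and 151 at 24 h in induced plants. The not induced plants read 18.0, 13.3 and 17.9 at 6 h, 13.8, 18.1 and 19.3 at 12 h, and 12.6, 12.0 and 18.1 at 24 h. All 9 induced arrays lay above all 9 not induced arrays, which stayed between 12.0 and 19.3. The mean induced signal was higher at each later time, although the induced arrays of 12 h and 24 h overlapped. The log2 differences were 1.88, 2.67 and 3.26 (SE 0.19), or 3.67-fold, 6.37-fold and 9.57-fold.

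MYBC1, a MYB-like transcription factor gene known from freezing tolerance, had signals of 77.1, 95.5 and 88.3 at 6 h, 95.7, 107 and 88.9 at 12 h, and 87.8, 88.9 and 65.6 at 24 h in induced plants. MYBC1 read 60.1, 54.5 and 49.1 at 6 h, 55.9, 51.7 and 50.3 at 12 h, and 46.4, 49.1 and 39.5 at 24 h in not induced plants. Its groups did not overlap either, but the response was small and level over time, with log2 differences of 0.67, 0.88 and 0.83 (SE 0.14). SPT (SPATULA), a bHLH transcription factor gene that acts at the carpel margin and in organ growth, had differences of 0.73, 1.07 and 0.79 (SE 0.20) over a not induced mean signal of 20.2. ATRX, a chromatin remodeller gene linked to deposition of a replacement histone H3, had differences of 0.74, 1.34 and 1.27 (SE 0.18) over a mean signal of 40.1. The other members of this kind were spread around these values. AT4G22250, another RING finger gene, had differences of 0.76, 0.95 and 1.05 (SE 0.20). AT2G19930, of the RNA-dependent RNA polymerase family, had 1.20, 1.33 and 1.66 (SE 0.32). AT3G24070, a zinc knuckle gene, had 0.79, 0.93 and 0.76 (SE 0.18), and AT4G20880, known as an ethylene-regulated nuclear protein gene, had 0.96, 1.05 and 1.08 (SE 0.19). All of these separated the induced from the not induced arrays at each time.

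Signalling members included a receptor-like kinase, a cytoplasmic kinase and a peptide ligand. AT5G45840, a leucine-rich repeat receptor-like kinase gene, had signals of 22.7, 26.3 and 32.8 at 6 h, 47.5, 54.1 and 47.9 at 12 h, and 50.6, 64.5 and 83.2 at 24 h in induced plants. AT5G45840 read 14.5, 11.7 and 15.0 at 6 h, 17.7, 14.4 and 10.7 at 12 h, and 12.0, 12.7 and 11.9 at 24 h in not induced plants. Its induced arrays were all above its not induced arrays, and the induced signal at 24 h was the most spread of its groups. The differences came to 0.98, 1.84 and 2.41 (SE 0.24), a growth of 1.43 between 6 h and 24 h.

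AT1G61590, a gene of a receptor-like cytoplasmic kinase, had signals of 29.1, 29.8 and 23.2 at 6 h, 24.9, 32.1 and 43.5 at 12 h, and 32.6, 26.9 and 37.6 at 24 h in induced plants. AT1G61590 read 14.6, 14.0 and 5.92 at 6 h, 8.37, 9.58 and 15.8 at 12 h, and 24.6, 9.72 and 19.2 at 24 h in not induced plants. Here the induced arrays lay above the not induced arrays of the same time, but the margin at 24 h was 26.9 against 24.6. The log2 differences of 1.35, 1.59 and 0.95 (SE 0.38) were smallest at 24 h. CLE27, the precursor gene of a CLE peptide ligand, was close to the signal minimum with a not induced mean of 11.2, and its differences were 0.88, 1.66 and 1.1 (SE 0.28).

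**Figure D2:**
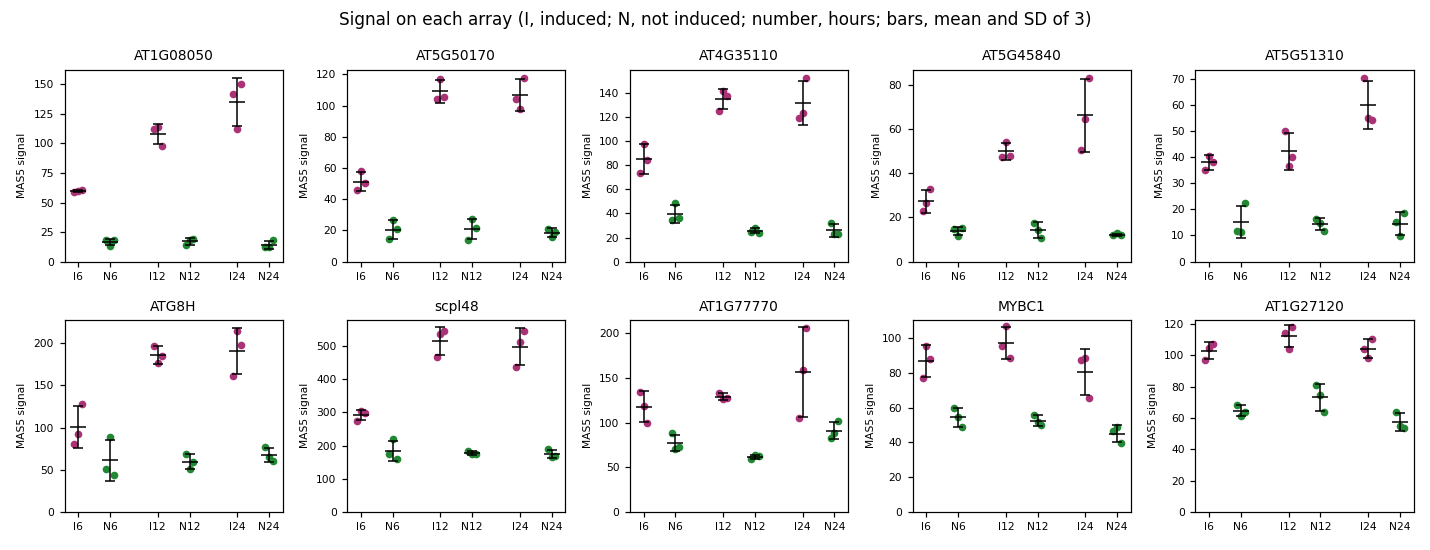
MAS5 signal (vertical axis, linear, from 0) on each of the 18 arrays for 10 members, the 5 with the largest mean difference and 5 with the highest signal without induction among those with a gene. Groups on the horizontal axis are induced (I) and not induced (N) plants at 6, 12 and 24 h, points are arrays and bars the mean and SD of 3; induced points lie above not induced points of the same time in all panels except 1 pair of ATG8H arrays at 6 h.

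Genes of autophagy and proteolysis made up another group. ATG8H encodes a ubiquitin-like ATG8 protein that is joined to lipid on autophagosome membranes. ATG8H had signals of 80.2, 92.9 and 128 at 6 h, 197, 177 and 185 at 12 h, and 161, 215 and 198 at 24 h in induced plants. The same probe set read 50.6, 88.3 and 43.9 at 6 h, 68.1, 50.7 and 59.7 at 12 h, and 76.5, 65.6 and 60.8 at 24 h in not induced plants. At 6 h the groups overlapped, since not induced array 2 lay above induced array 1, and at 12 h and 24 h they were clearly apart. On the log2 scale the differences were 0.76, 1.66 and 1.50 (SE 0.21). Without not induced 6 h replicate 3 the 6 h difference was 0.56, below the threshold of the rule.

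Of 19 listed autophagy genes, which are no members apart from ATG8H, 9 further ones were measured. At 6 h 0 passed limma and 0 had an unadjusted p under 0.05, 2 rose at 12 h and 4 rose at 24 h, and none fell, beside 0.572%, 2.91% and 4.43% of all probe sets that rose and 0.396%, 1.93% and 3.9% that fell at the 3 times. Their median differences were -0.06, 0.35 and 0.45. APG8A stood at 200.0 ± 11.4 in induced plants and 132 ± 6.87 in not induced plants at 12 h (SD, n = 3 each; log2 difference 0.60, limma adjusted p = 0.0105), and at 24 h its difference was 0.57 (limma adjusted p = 0.00997). ATG8G had a difference of 0.78 at 12 h (limma adjusted p = 0.0272). At 24 h ATG8B had 0.76 (limma adjusted p = 0.0155) and ATG8C 0.52 (limma adjusted p = 0.014), and the fourth was ATG8D. ATG8E, ATG8F, ATG3 and the ATG8I gene, which the table calls APG8H, did not pass at any time. ATG8D at 24 h stood at 137 ± 9.39 in induced plants and 91.0 ± 8.66 in not induced plants (SD, n = 3 each). The calls of ATG8G and ATG8D were lost in 6 and 5 alternatives, those of ATG8B and ATG8C in 3 each and those of APG8A in 1 at each time.

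The member gene with the highest signal was scpl48, a serine carboxypeptidase-like gene. Its signals were 273, 303 and 299 at 6 h, 467, 536 and 545 at 12 h, and 436, 513 and 545 at 24 h in induced plants. In not induced plants scpl48 read 173, 218 and 158 at 6 h, 183, 176 and 173 at 12 h, and 189, 166 and 169.7 at 24 h. The induced arrays exceeded all not induced arrays, by the least at 6 h, and the log2 differences were 0.68, 1.54 and 1.51 (SE 0.11). AT1G62290, an aspartic protease gene, had differences of 0.70, 1.13 and 1.26 (SE 0.17) over a not induced mean of 35.2.

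Several members with large responses encode proteins of membranes and lipids. AT5G50170, whose protein has a C2 and a GRAM domain of the kind that binds lipids, had signals of 45.6, 57.9 and 50.1 at 6 h, 104, 117 and 105 at 12 h, and 105, 97.6 and 118 at 24 h in induced plants. AT5G50170 read 14.4, 26.5 and 20.6 at 6 h, 13.9, 27.0 and 21.3 at 12 h, and 21.2, 15.6 and 18.8 at 24 h in not induced plants. Its induced signals at 12 h and 24 h were about level and far above those of 6 h, while not induced signals never passed 27.0. This gave log2 differences of 1.36, 2.44 and 2.53 (SE 0.23).

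AT4G35110, of a phospholipase-like family, had signals of 73.5, 98.2 and 84.6 at 6 h, 126, 142 and 138 at 12 h, and 119.6, 124 and 153 at 24 h in induced plants. AT4G35110 read 34.7, 48.5 and 36.6 at 6 h, 24.6, 28.2 and 24.2 at 12 h, and 32.4, 22.9 and 23.3 at 24 h in not induced plants. Its signal without induction was highest at 6 h, and the induced arrays were above all of these. The log2 differences were 1.1, 2.40 and 2.34 (SE 0.17), with 12 h and 24 h alike.

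AT1G12730, a subunit gene of the transamidase that attaches GPI anchors to proteins, had signals of 17.8, 19.9 and 30.9 at 6 h, 37.7, 43.6 and 40.8 at 12 h, and 40.1, 35.5 and 44.7 at 24 h in induced plants. AT1G12730 read 11.6, 15.6 and 13.0 at 6 h, 20.5, 17.0 and 14.4 at 12 h, and 23.7, 19.7 and 26.8 at 24 h in not induced plants. The groups were apart at each time, although the lowest induced array at 6 h, at 17.8, was below all 3 not induced arrays at 24 h. Differences in mean log2 signal were 0.74, 1.25 and 0.78 (SE 0.24).

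AT5G05350, of the PLAC8 family of small membrane proteins, had signals of 24.8, 19.4 and 22.6 at 6 h, 31.2, 32.1 and 25.6 at 12 h, and 21.7, 26.7 and 30.1 at 24 h in induced plants. AT5G05350 read 11.7, 10.5 and 10.2 at 6 h, 18.8, 14.7 and 10.9 at 12 h, and 16.7, 15.8 and 16.8 at 24 h in not induced plants. Every induced array was above every not induced array, by 19.4 against 18.8 at the closest, and the log2 differences were 1.03, 1.03 and 0.66 (SE 0.25).

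Some members encode proteins of the cell wall and of sugar transfer. AT1G27120, a galactosyltransferase gene, had signals of 97.2, 105 and 107 at 6 h, 114, 104 and 118 at 12 h, and 104, 98.1 and 111 at 24 h in induced plants. AT1G27120 read 68.5, 61.4 and 64.1 at 6 h, 80.8, 74.9 and 63.8 at 12 h, and 63.9, 54.6 and 53.6 at 24 h in not induced plants. The groups did not overlap and the induced signal hardly varied, with log2 differences of 0.67, 0.62 and 0.86 (SE 0.11).

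AT1G32860, a glycosyl hydrolase gene of the beta-glucanase type, had signals of 73.7, 60.4 and 55.9 at 6 h, 61.1, 51.1 and 69.2 at 12 h, and 57.3, 54.2 and 66.1 at 24 h in induced plants. AT1G32860 read 43.6, 35.4 and 45.6 at 6 h, 39.4, 29.4 and 32.9 at 12 h, and 33.9, 22.3 and 37.4 at 24 h in not induced plants. It was 1 of the 3 members nearest the threshold, with log2 differences of 0.61, 0.84 and 0.95 (SE 0.19), and it was at 0.49 at 6 h without induced replicate 1. A second galactosyltransferase gene, AT1G05170, had differences of 0.63, 0.70 and 0.70 (SE 0.23) and its groups overlapped at 24 h. AT4G13710, a pectate lyase gene, had 0.98, 0.91 and 0.99 (SE 0.20).

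Transport genes included AT3G05920, whose protein has a heavy-metal-associated domain. AT3G05920 had signals of 27.5, 32.0 and 32.6 at 6 h, 44.7, 45.1 and 48.7 at 12 h, and 43.2, 52.1 and 46.3 at 24 h in induced plants. AT3G05920 read 12.0, 13.6 and 8.05 at 6 h, 11.6, 13.6 and 14.4 at 12 h, and 28.2, 31.3 and 27.6 at 24 h in not induced plants. Not induced signals at 24 h were higher than at the earlier times, and the difference there was the smallest of the 3. Its log2 differences were 1.48, 1.81 and 0.70 (SE 0.21). AT4G38380 and AT1G73700 belong to the MATE efflux transporters. AT4G38380 had differences of 1.23, 1.75 and 1.14 (SE 0.29). AT1G73700, which had the lowest not induced signal of all members at 10.1, had 0.70, 0.75 and 0.61 (SE 0.39) with overlap at 6 h. AT5G17850, of the cation and calcium exchangers, had 0.86, 0.89 and 1.12 (SE 0.23).

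Among metabolic genes, AT5G51310 belongs to the oxygenases that depend on iron and 2-oxoglutarate. AT5G51310 had signals of 35.1, 40.6 and 38.2 at 6 h, 50.1, 36.4 and 40.1 at 12 h, and 70.4, 55.2 and 54.4 at 24 h in induced plants. AT5G51310 read 11.7, 11.3 and 22.4 at 6 h, 16.2, 14.8 and 11.7 at 12 h, and 15.0, 9.74 and 18.6 at 24 h in not induced plants. All induced arrays lay above all not induced arrays, and the log2 differences were 1.40, 1.57 and 2.09 (SE 0.28). AT2G39980, of the HXXXD acyltransferases, had 0.75, 1.95 and 1.60 (SE 0.21), and AT2G45600, a carboxylesterase-like gene, had 0.70, 1.41 and 1.37 (SE 0.17). AT1G24735, an O-methyltransferase-like gene, had 1.02, 1.40 and 1.51 (SE 0.23), and AT5G40270, of the HD-domain phosphohydrolases, had 0.62, 0.90 and 1.21 (SE 0.19). The terpene synthase family gene AT3G29410 had 0.71, 1.37 and 1.32 (SE 0.49). Its 6 h value rested on 1 array, not induced replicate 3 at 2.61 against 14.5 and 14.6 on the other two, and was -0.12 without it. From induced 6 h array 1 alone, the difference of AT3G29410 was -0.02.

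AT5G62550, a gene described as microtubule-associated, had signals of 48.3, 64.6 and 55.4 at 6 h, 100.1, 133 and 115 at 12 h, and 163, 144 and 190.1 at 24 h in induced plants. AT5G62550 read 27.7, 33.8 and 37.7 at 6 h, 46.6, 50.4 and 49.4 at 12 h, and 76.3, 57.4 and 59.7 at 24 h in not induced plants. Both series climbed with time, and the groups of each time were apart, with log2 differences of 0.77, 1.24 and 1.36 (SE 0.16). AT1G77580, of the filament-like proteins, had 0.83, 0.68 and 0.62 (SE 0.25), with overlap at 6 h and 24 h. AT5G43520, a cysteine- and histidine-rich C1 domain gene, had 0.84, 2.15 and 1.58 (SE 0.28). AT1G52560, a small heat shock protein gene, had 1.25, 1.45 and 1.99 (SE 0.65), the largest standard error of the members with a gene. AT1G52560 overlapped at 6 h, where not induced replicate 3 read 1.85, and its 6 h difference was 0.29 without that array.

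For the remaining named members no role is stated here. AT3G01430 had signals of 39.3, 33.4 and 30.8 at 6 h, 49.9, 46.4 and 40.5 at 12 h, and 35.2, 38.1 and 29.8 at 24 h in induced plants. AT3G01430 read 11.7, 15.9 and 1.43 at 6 h, 17.3, 14.3 and 14.1 at 12 h, and 28.3, 16.5 and 12.7 at 24 h in not induced plants. Its induced arrays were above all not induced arrays, but not induced 6 h replicate 3 stood far below the other two. The differences came to 2.41, 1.58 and 0.92 (SE 0.56), the highest at 6 h of all members, and the 6 h value was 1.33 without that array.

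AT5G64230 had signals of 46.4, 61.1 and 33.6 at 6 h, 54.4, 40.8 and 46.1 at 12 h, and 48.7, 37.9 and 46.0 at 24 h in induced plants. AT5G64230 read 19.4, 28.7 and 23.7 at 6 h, 16.8, 13.6 and 12.3 at 12 h, and 12.9, 12.5 and 8.49 at 24 h in not induced plants. The induced signals were about level over time while the not induced signals were lower at the later times, so that the log2 differences of 0.95, 1.73 and 1.98 (SE 0.25) grew.

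AT5G42330 climbed with time in both kinds of plants. It had signals of 38.3, 37.0 and 28.7 at 6 h, 55.6, 51.5 and 58.0 at 12 h, and 70.9, 45.3 and 87.5 at 24 h in induced plants. The probe set read 14.6, 16.4 and 5.24 at 6 h, 15.8, 19.7 and 21.9 at 12 h, and 23.3, 29.5 and 25.3 at 24 h in not induced plants. The groups of each time were apart, and the log2 differences were 1.67, 1.54 and 1.34 (SE 0.32). Without not induced 6 h replicate 3, which read 5.24, the 6 h difference of AT5G42330 was 1.15.

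AT5G08240 had signals of 35.2, 56.3 and 56.0 at 6 h, 68.2, 87.4 and 67.3 at 12 h, and 108, 88.7 and 111 at 24 h in induced plants. AT5G08240 read 34.3, 30.2 and 19.9 at 6 h, 21.3, 45.7 and 24.3 at 12 h, and 25.5, 24.1 and 14.8 at 24 h in not induced plants. At 6 h the groups nearly met, with 35.2 against 34.3, and at 24 h they were far apart. The log2 differences were 0.81, 1.36 and 2.29 (SE 0.28), a growth of 1.48 between 6 h and 24 h.

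AT1G80800, which the RefSeq table lists as a transcribed pseudogene, had signals of 26.4, 38.4 and 47.0 at 6 h, 61.6, 59.1 and 53.7 at 12 h, and 50.9, 63.6 and 50.2 at 24 h in induced plants. AT1G80800 read 19.5, 22.2 and 19.0 at 6 h, 41.7, 32.1 and 31.3 at 12 h, and 34.9, 35.6 and 33.0 at 24 h in not induced plants. Arrays of the same time did not overlap, but induced 6 h array 1 was below the not induced arrays of 12 h and 24 h. This gave log2 differences of 0.85, 0.74 and 0.66 (SE 0.19).

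AT1G13970 had signals of 27.5, 24.8 and 31.3 at 6 h, 30.9, 37.4 and 42.6 at 12 h, and 29.7, 32.6 and 41.0 at 24 h in induced plants. AT1G13970 read 17.7, 16.5 and 20.6 at 6 h, 19.9, 13.4 and 15.2 at 12 h, and 18.7, 16.4 and 19.8 at 24 h in not induced plants. Its groups did not overlap, and its log2 differences were 0.61, 1.20 and 0.91 (SE 0.22).

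AT1G77770 had signals of 135, 118 and 99.9 at 6 h, 133, 126 and 128 at 12 h, and 105, 159 and 207 at 24 h in induced plants. AT1G77770 read 87.8, 70.3 and 73.1 at 6 h, 58.8, 63.2 and 62.7 at 12 h, and 82.8, 88.7 and 102 at 24 h in not induced plants. The induced 24 h arrays were spread widely, with the lowest just above the highest not induced array of that time. Over time the log2 differences were 0.61, 1.07 and 0.73 (SE 0.17).

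A further 6 have no stated role. AT5G54530 had log2 differences of 1.27, 1.19 and 1.1 (SE 0.20), AT5G06930 had 0.72, 1.44 and 0.78 (SE 0.24) and AT5G40690 had 0.80, 0.98 and 0.99 (SE 0.17). AT1G34630 had 0.84, 0.80 and 1.12 (SE 0.18) and AT3G48510 had 0.74, 0.76 and 0.67 (SE 0.27). AT5G43870 had 0.65, 0.63 and 0.88 (SE 0.20), with overlapping groups at 6 h.

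The 41 members without a gene had median differences of 0.97, 1.20 and 1.24 at 6, 12 and 24 h, with ranges of 0.60 to 2.07, 0.61 to 3.00 and 0.61 to 3.10, against medians of 0.81, 1.25 and 1.1 for the 49 with a gene. Their not induced signals had a median of 23.6, against 24.5. The share with 1 gene was 54.4% among members, against 54.7% of all probe sets above the signal minimum. Among the 41, 253416_at had signals of 92.5, 126 and 96.8 at 6 h, 120.0, 137 and 155 at 12 h, and 109, 115 and 151 at 24 h in induced plants. In not induced plants 253416_at read 20.5, 37.3 and 31.1 at 6 h, 19.5, 21.6 and 17.7 at 12 h, and 14.1, 16.8 and 13.3 at 24 h. All induced arrays were far above the others, and the log2 differences were 1.86, 2.80 and 3.08 (SE 0.20), the second largest mean of all members.

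On single arrays the induced and not induced plants were apart for most members, which the rule favours. All 3 induced arrays lay above all 3 not induced arrays for 78 members at 6 h, 88 at 12 h and 86 at 24 h, and at all 3 times for 75 of 90, 42 of the 49 with a gene and 33 of the 41 without. Over all probe sets above the signal minimum the share at all 3 times was 1.97%, and the shares at single times are not given here. Nothing is read from this, since the same arrays chose the members.

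Each induced array was also set by itself against the mean of the 3 not induced arrays of its time. At 6 h the median over members was 0.86 on array 1, 0.91 on array 2 and 1.00 on array 3, with 89, 90 and 90 members above 0 and 63, 76 and 83 at 0.6 or more. The one member not above 0 was AT3G29410 on array 1. Among the named members below 0.6 on 6 h array 1 were AT1G77580 at 0.23, AT5G08240 at 0.36 and AT1G80800 at 0.39. ATG8H, ATRX and MYBC1 were at 0.46, 0.47 and 0.50 there. Others were further apart on array 1 than on average, such as AT1G52560 at 2.08 and AT1G73700 at 1.33. At 12 h the medians were 1.19, 1.29 and 1.22, and at 24 h 1.15, 1.11 and 1.32, with all 90 members above 0 on each array. At 12 h 86, 88 and 85 members reached 0.6, and at 24 h 79, 83 and 84 did. Of all probe sets above the signal minimum, 52.7% to 57.1% were above 0 and 4.24% to 7.67% reached 0.6 on an array. Since these arrays also chose the members, nothing is read from the medians about the control probe sets of the 6 h arrays. With array 1 as the only induced 6 h array the rule chose 85 probe sets, of which 63 were among the 90.

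**Figure D3:**
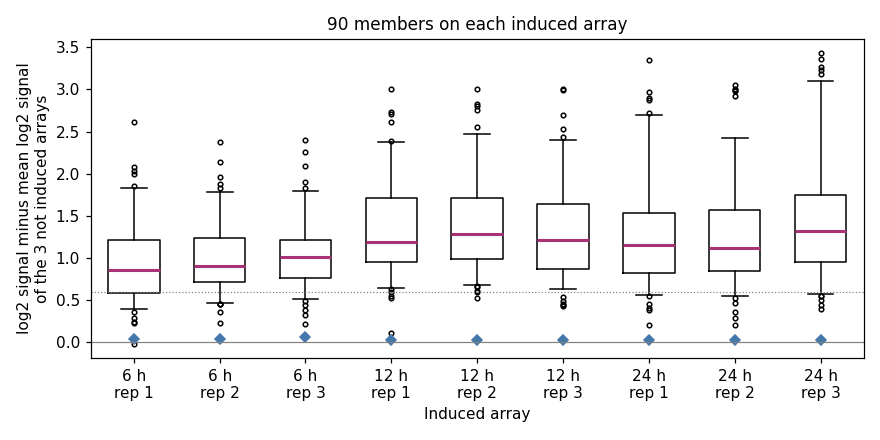
Log2 signal of the 90 members on each induced array minus the mean log2 signal of the 3 not induced arrays of the same time (vertical axis), by induced array (horizontal axis). Boxes span the quartiles with the median as a line, whiskers run from the 5th to the 95th percentile, circles are members beyond them, diamonds are the median of all probe sets with signal of at least 10 and the dotted line is the threshold of 0.6; member medians lie between 0.86 and 1.32 and the diamonds near 0.

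The same measure was then taken on arrays that the choice had not used. The rule was applied to the arrays of 2 replicate numbers, and the difference was measured in the 6 arrays of the third. Without replicate number 1 the rule chose 99 probe sets, 76 of them members, whose median differences in the left-out arrays were 0.73, 1.07 and 1.02 at 6, 12 and 24 h. Without number 2 it chose 106, 73 of them members, with medians of 0.70, 1.31 and 1.18. Without number 3 it chose 81, 64 of them members, with medians of 0.87, 1.08 and 1.35. A difference above 0 at every time was found in 85, 87 and 73 of these. The share of all probe sets above 0 at every time is not given here. At single times it was 50.2% to 55.2% of those above the signal minimum. A difference of at least 0.6 at every time was found in 47 (47.5%), 49 (46.2%) and 42 (51.9%), against 0.727%, 0.671% and 0.915% of all probe sets above the signal minimum. The labels do not say whether the replicates are independent, and no test was made, so these shares are only a description.

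The thresholds cut through a continuous range. Just inside, 246922_at, AT1G77770 and AT1G32860 had a lowest difference of 0.60, 0.61 and 0.61. Just outside, AT1G68500, ZIP6 and AT1G05320 had differences of 0.60, 0.60 and 0.59 at 6 h, the first 2 below 0.6 before rounding. On the signal side, AT1G73700, AT1G52560 and 250467_at were inside at means of 10.1, 10.3 and 10.6, and scpl40, AT1G19540 and AT3G47680 outside at 9.27, 8.85 and 8.65. A further 286 probe sets met the differences below the signal minimum. When each array was left out in turn, 48 members met the rule every time and 42 failed it at least once.

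Whether the members also changed with time in plants without induction is a question the rule did not use, although the same not induced arrays entered the rule. Between 6 h and 12 h limma called 2 members higher and 2 lower at 12 h, with 1.44% of all probe sets higher and 1.47% lower. Fitted only on probe sets above the signal minimum, it called 5 and 2 members, with 2.67% and 2.53% of these probe sets. AT1G80800 was 0.78 ± 0.19 higher at 12 h (SE, limma adjusted p = 0.0315) and 254608_at 0.54 ± 0.11 higher (limma adjusted p = 0.012). AT4G35110 was lower by 0.63 ± 0.17, a log2 change of -0.63 (limma adjusted p = 0.0441), and 263320_at had a log2 change of -0.84 ± 0.16 (limma adjusted p = 0.00637). Between 12 h and 24 h AT3G05920 was higher at 24 h by 1.14 ± 0.21 (limma adjusted p = 0.00563) and 267238_at had a log2 change of -0.68 ± 0.14 (limma adjusted p = 0.0117), 2 of 90 members where 1.45% of all probe sets were called. Fitted only on probe sets above the minimum, 1 member was higher and 1 lower at 24 h than at 12 h, with 0.865% and 1.56% of these. Of 26 alternatives, AT4G35110 at 12 h lost its call in 14 (limma adjusted p up to 0.161), AT1G80800 in 6 (up to 0.158), 267238_at in 5, 254608_at in 2 and AT3G05920 in 1.

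Between 6 h and 24 h, 11 members were higher and 6 lower at 24 h in plants without induction, beside 4.98% and 4.88% of all probe sets. All probe sets include those below the signal minimum, which could not be members. Fitted only on probe sets above the minimum, 12 members were higher and 7 lower, beside 8.26% and 7.51% of these probe sets. AT3G05920 rose by 1.40 ± 0.21 (SE, limma adjusted p = 0.000181), AT5G42330 by 1.26 ± 0.32 (limma adjusted p = 0.0157) and AT5G62550 by 0.96 ± 0.16 (limma adjusted p = 0.000401). AT1G12730, AT1G80800 and AT5G40690 rose by 0.81, 0.77 and 0.57 (limma adjusted p = 0.0346, 0.0132 and 0.0361). AT5G64230 fell by 1.09 ± 0.25 (limma adjusted p = 0.00734), AT4G35110 by 0.61 ± 0.17 (limma adjusted p = 0.0215) and 253416_at by 0.97 ± 0.20 (limma adjusted p = 0.00335). Of 26 alternatives, AT5G40690 lost its call in 9 (limma adjusted p up to 0.175), AT1G12730 in 6 (up to 0.141), AT4G35110 in 4 and AT5G42330 in 3, and the other 5 named so far in 0. Of the remaining called members, all without a gene, 251035_at lost its call in 17 (limma adjusted p up to 0.227). The probe sets 253325_at and 254952_at lost it in 7 each, 256300_at in 5, 259776_s_at in 3 and 254608_at in 1. For 252248_at and 263320_at it was lost in 0. With each array shifted to 1 median, 8 members rose and 6 fell, and over all probe sets the split moved to 718 up and 1394 down, where it was 1132 up and 1111 down. Fitted on the 9 not induced arrays alone, 5 members rose and 3 fell, with 4.35% and 4.49% of all probe sets. The count of 17 was 11 without not induced 6 h replicate 3, with 6 higher and 5 lower beside 4.6% and 3.89% of all probe sets. It was also 11 without not induced 24 h replicate 3, with 7 higher and 4 lower beside 2.98% and 3.51%. A low not induced 6 h array both raises a member's 6 h difference and makes a rise with time, so these rises are not independent of the rule. Over all members the median change between 6 h and 24 h was 0.07, against 0.05 over all probe sets.

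**Figure D4:**
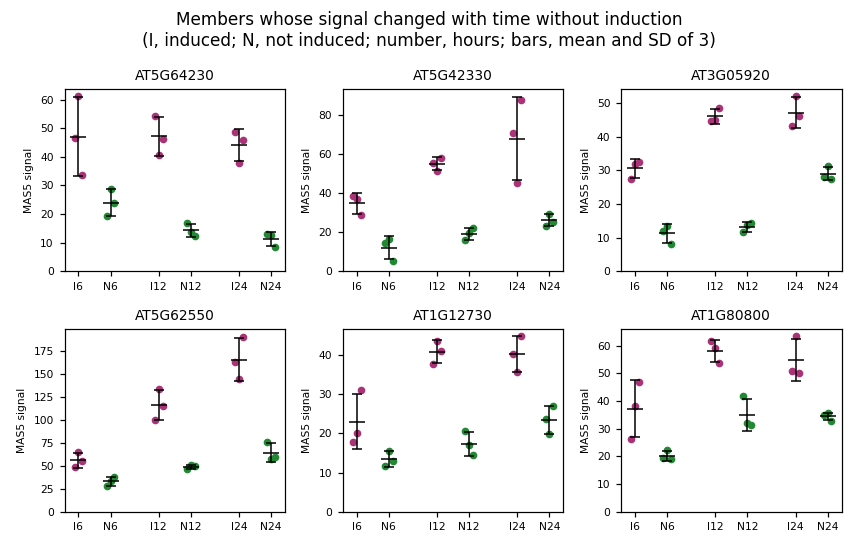
MAS5 signal (vertical axis, linear, from 0) on each of the 18 arrays for 6 members whose signal differed between 6 h and 24 h without induction. Groups are induced (I) and not induced (N) plants at 6, 12 and 24 h, points are arrays and bars the mean and SD of 3; the not induced points of AT5G64230 fall with time, those of the other 5 rise, and induced points lie above not induced points of the same time in every panel.

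Other genes tied to DUO1, pollen and the tissues of a seedling were read from lists, none of which held a member apart from ATG8H. Of 174 listed entries 47 were found by name in the annotation and are called measured. An entry that was not found may still have a probe set, since 8730 probe sets had no gene. TET10, CP1, CYP78A9 and BGAL16, left out above, had probe sets and are not counted. Over all 22746 probe sets limma called 130 up and 90 down at 6 h, 662 up and 440 down at 12 h and 1007 up and 887 down at 24 h. With each array shifted to 1 median the splits were 89 and 133, 492 and 620, and 795 and 1163. Of 13 listed DUO1 targets 2 were measured, MGH3 and the tetraspanin gene TET11, and both rose at each time, in a list that is not independent evidence because the targets were found in such experiments. MGH3 had signals of 178 ± 29.9, 427 ± 17.0 and 551 ± 98.5 in induced plants and 2.26 ± 2.18, 2.83 ± 2.79 and 1.54 ± 1.12 in not induced plants at 6, 12 and 24 h (SD, n = 3 each). Both were near background without induction and so fell below the signal minimum of the rule.

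Of the sperm cell list, MGH3 and TET12 were measured and TET12 did not pass at any time. Among the 4 measured genes of the vegetative pollen cell and tube, ACT11, which encodes an actin, rose by 0.50 at 12 h (limma adjusted p = 0.0167) and by 1.14 at 24 h (limma adjusted p = 2.59e-06), with the 12 h call lost in 3 alternatives. ACT11 already averaged 95.6 in not induced seedlings, so its rise does not mark pollen cells. The others, ANX1, ANX2 and ACT12, did not pass at any time and lay at background on nearly every array. Of 14 measured tetraspanin genes, which hold TET11, 1 rose and 1 fell at 6 h, 3 rose at 12 h and 3 rose at 24 h. TET8 fell at 6 h, with 218 ± 37.7 in induced plants and 321 ± 35.5 in not induced plants (SD, n = 3 each; limma adjusted p = 0.0135). TET4 and TET16 joined TET11 at 12 h, and TET14 and TET16 at 24 h, all at signals under 20. TET14 at 24 h lost its call in 15 alternatives, TET8 at 6 h in 4, TET4 at 12 h in 2 and TET16 at 12 h in 1. Of 3 measured G2 to M phase genes, AUR2 rose by 0.74 at 12 h and by 0.67 at 24 h (limma adjusted p = 0.00118 and 0.00179), and AUR1 by 0.42 at 12 h (limma adjusted p = 0.041), a call lost in 13 alternatives.

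Markers of seedling cell types moved in 1 direction for root hairs. Both measured root hair genes of 5 listed, EXPA7 and EXPA18, fell at each time. Their summed signal per array was 27.1 to 38.5 in induced and 61.0 to 71.4 in not induced plants at 6 h, 21.1 to 39.4 and 62.5 to 77.7 at 12 h, and 26.3 to 35.0 and 89.9 to 118 at 24 h. EXPA18 at 6 h lost its call in 17 alternatives and EXPA7 in 7, and EXPA7 at 12 h in 1. The part of a change in root hairs in the members' responses was not tested. The root gene PYK10, the photosynthesis genes LHCB4.1, LHCB4.2 and RCA, the guard cell gene FMA and the reference gene PEX4 did not pass at any time. Among 3 chemical detoxification genes, GSTU22 had log2 changes of -0.58, -1.35 and -1.94 (limma adjusted p = 0.0261, 7.32e-07 and 3.87e-09), GSTU25 fell at 12 h and 24 h, and UGT73B4 did not pass. The touch and wound gene CML37 rose at 12 h and 24 h, to signals of 17.9 ± 5.68 and 17.6 ± 2.52 in induced plants, against 0.997 ± 1.20 and 3.84 ± 2.99 in not induced plants (SD, n = 3 each). CML37 at 24 h lost its call in 16 of 24 alternatives, with adjusted p up to 0.229 in limma, and GSTU22 at 6 h in 5. In the lists of beta-galactosidase, CYP78A, papain-like protease and vascular tissue genes 0 entries were found by name. These families were therefore not read here, which does not mean that the array lacks them.

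The members with a gene were spread over the genome. Of the 48 placed among coding genes in the RefSeq table, 15 lay on chromosome 1, 4 on chromosome 2, 8 on chromosome 3, 6 on chromosome 4 and 15 on chromosome 5. Within 10 coding genes of each other lay 0 pairs of them.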

How the data were processed

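Labelled RNA from 18 whole-plant samples was hybridised to ATH1 arrays. The authors deposited intensities, which the submitters' processing notes tie to MAS5 and GCOS without a version, and the values are linear. Each array carries the same scale in the deposited signals: its mean is 100.0 once 2% of probe sets are trimmed at either end. Signals were used as deposited and converted to log2 with no offset. The 64 control probe sets were left out, and gene names came from the annotation and RefSeq tables given, which name 1 gene for 13513 of the 22746 probe sets, several for 503 and none for 8730.

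The members follow from the rule stated above. The members and the lists of other genes were chosen with earlier results of these data known. The main model was limma 3.58.1 under R 4.3.3 on log2 signal, with 1 mean per group, all 18 arrays sharing 1 estimate of spread per probe set (12 residual and 7.69 prior degrees of freedom) and an intensity trend. Benjamini-Hochberg adjustment ran over all 22746 probe sets in each contrast, two-sided, with a threshold of 0.05. The steps were tested on simulated data with 200 changed probe sets. Figures were drawn with Python 3.11.15, pandas 2.3.3, numpy 2.4.6 and matplotlib 3.10.9.

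Every member with 1 gene is named. Values on all arrays are given for those with the 5 largest mean differences, the 5 highest signals, the 4 largest rises and 4 largest falls of the difference over time, the 3 nearest the threshold, up to 6 with a change over time without induction, and members of a list. Alternatives were quantile normalization, a shift of each array to 1 median, an offset of 10, other minimums, array weights, a fit without the trend, a block for replicate number, fewer arrays or probe sets in the fit, and each array left out. Induced 6 h array 1 alone and signals raised to background were added after seeing the data. A planned count of MYB motifs in promoters was not run, as no sequences were analysed here.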

Additional observations from a re-analysis of the deposited data

How the results depend on the processing

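The number of members was 90, 47 with log2 of signal plus 10, 51 with a minimum signal of 20, 24 with a minimum difference of 1 and 81 to 101 without 1 array. It was 74 with quantile normalization and 72 with each array shifted to 1 median, all of them among the 90. The median differences of 0.85, 1.22 and 1.16 at 6, 12 and 24 h became 0.65, 0.93 and 0.92 with signal plus 10, and 0.78 at 6 h with 1 median. Without 1 array they ran from 0.85 to 0.99, from 1.22 to 1.26 and from 1.12 to 1.26, with 0.99 at 6 h without not induced replicate 2. For probe sets chosen without replicate number 2, the share reaching 0.6 at all times in its arrays was 46.2%, or 57.7% with 1 median.

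Of members changed without induction between 6 h and 12 h, 4 were called, 7 when only probe sets with signal of at least 10 were fitted, 1 without the intensity trend and 2 with only the 9 not induced arrays. Without 1 array this ran from 1 to 7, with 7 without induced 6 h replicate 1, and 1 and 2 without not induced 12 h replicates 1 and 2. Between 12 h and 24 h the 2 calls became 1 without the trend, 6 with array weights and 1 with only the 9 not induced arrays, and ran from 1 to 3 without 1 array, with 1 without not induced 12 h replicate 1, 12 h replicate 2 or 24 h replicate 3. Between 6 h and 24 h the 17 calls became 8 with only the 9 not induced arrays and ran from 11 to 19 without 1 array. Over all probe sets, induction calls numbered 220, 1102 and 1894, with 2974 at 24 h under array weights. Without 1 array they ran from 98 to 262, from 615 to 1190 and from 1161 to 2061. The counts fell below the main ones by over 1.5 times without induced 6 h replicate 2 (124) or 3 (98), induced 12 h replicate 2 (615), not induced 12 h replicate 3 (704), induced 24 h replicate 2 (1230) or 3 (1161), and not induced 24 h replicate 3 (1210).

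For the 49 members with a gene, 147 differences were followed through 1519 alternatives. Of these, 1433 stayed within 1 SD, the pooled SD of the 2 groups, 84 moved further and 2 changed sign. Leaving out 1 of 3 arrays cannot shift a difference by over 1 such SD. Those alternatives could change sign but could not count as moved, so the count within 1 SD was in large part fixed in advance. Both changes of sign were AT3G29410 at 6 h, with -0.12 without not induced 6 h replicate 3, up to 1.12 without replicate 2, and -0.017 with induced array 1 alone. The causes of these shifts were not tested. Deviations of same-numbered induced and not induced arrays correlated between -0.087 and 0.047. Those of same-numbered arrays of different times correlated between -0.068 and 0.141. Such correlations cannot settle whether replicate numbers paired the samples, which the labels do not say. With the replicate number as a block, 4, 2 and 17 members changed with time, and 178, 1027 and 1806 probe sets changed with induction.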
